A study of Mus musculus with 15 samples.

Results

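The circadian clock genes Per1, Per2, Per3, Cry1, Cry2, Nr1d1, Nr1d2, Dbp, Arntl and Bhlhe40 were followed in mouse fibroblasts after a single protein was unfolded. These 10 genes were taken by name from the 20207 genes of each table, and the question was whether the clock was reset over the time course. The cells, NIH3T3, are an embryonic fibroblast line in which a destabilizing domain (DD) fused to superfolder GFP (DD-sfGFP) was stably expressed. The DD derives from the FKBP protein, and its ligand Shield-1 (S1), a small molecule, keeps it folded. mRNA levels were read out by mRNA-seq. All samples carried the same transgene, and the cells had been sorted as a population of high GFP. In the 5 control samples (time 0) S1 was kept in the medium. In the others S1 was withdrawn by adding purified FKBP protein that captures it, and cells were collected after 45 min (3 samples), 135 min (3 samples) or 405 min (4 samples). No control of a later time is analysed here, so time in culture, addition of the FKBP protein and the unfolding of the DD cannot be told apart. The labels do not say whether replicates were separate cultures, so p-values measure the spread between these samples, which may be technical.

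The mammalian clock is a loop of transcription. Arntl (also called Bmal1) encodes the activator that pairs with the CLOCK protein and binds E-box motifs, and the Per and Cry genes encode the repressors that close the loop. Nr1d1 and Nr1d2 encode the nuclear receptors REV-ERB alpha and beta, which repress Arntl through RORE motifs. Bhlhe40 (DEC1) encodes a further E-box repressor, and Dbp encodes an output activator that binds D-box motifs. In cultured fibroblasts each cell keeps its own phase, and serum, glucocorticoids or cAMP can align the cells by a rapid rise of Per1 and Per2.

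RefSeq promoter windows, 250 bases before to 50 bases after the gene start, were found for 8 of the 10 genes (10 windows) on the GRCm38.p6 assembly, a different build from that of the deposited tables. Neither Per2 nor Bhlhe40 had a window. Both strands were searched for the E-box CACGTG, the D-box TTANGTAA, the RORE TAGGTCA, the cAMP response element TGACGTCA and the heat shock element GAANNTTC, and no match overlapped another. The 4 windows with any match are printed because they hold the letters through which the loop is known to close, with the match in capitals.

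Per1 (chr11:69098699-69098998, plus strand): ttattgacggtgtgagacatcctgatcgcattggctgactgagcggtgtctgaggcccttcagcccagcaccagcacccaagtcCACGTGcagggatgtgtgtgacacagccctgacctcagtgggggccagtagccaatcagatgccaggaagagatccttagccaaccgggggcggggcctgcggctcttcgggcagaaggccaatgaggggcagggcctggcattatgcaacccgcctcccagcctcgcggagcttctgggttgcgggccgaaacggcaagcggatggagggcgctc

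Cry1 (chr10:85185005-85185304, minus strand): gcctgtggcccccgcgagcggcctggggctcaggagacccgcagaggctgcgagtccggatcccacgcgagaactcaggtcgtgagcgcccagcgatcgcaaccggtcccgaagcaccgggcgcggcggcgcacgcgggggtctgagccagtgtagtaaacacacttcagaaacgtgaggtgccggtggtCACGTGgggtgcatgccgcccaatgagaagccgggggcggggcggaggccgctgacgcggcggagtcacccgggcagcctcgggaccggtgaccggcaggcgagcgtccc

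Arntl (chr7:113207261-113207560, plus strand): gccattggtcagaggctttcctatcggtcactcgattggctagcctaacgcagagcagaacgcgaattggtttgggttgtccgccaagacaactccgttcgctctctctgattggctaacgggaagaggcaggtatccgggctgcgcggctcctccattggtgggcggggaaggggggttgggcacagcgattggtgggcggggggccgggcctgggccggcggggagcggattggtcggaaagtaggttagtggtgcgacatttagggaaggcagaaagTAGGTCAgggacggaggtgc

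Per3 (chr4:151044616-151044915, minus strand): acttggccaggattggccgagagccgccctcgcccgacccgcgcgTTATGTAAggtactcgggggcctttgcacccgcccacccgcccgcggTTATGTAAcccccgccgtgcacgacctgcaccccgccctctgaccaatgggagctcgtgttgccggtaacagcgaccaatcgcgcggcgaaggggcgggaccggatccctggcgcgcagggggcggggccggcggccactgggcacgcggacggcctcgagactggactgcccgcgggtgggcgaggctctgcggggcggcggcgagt

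Per1 and Cry1 each held 1 E-box, the Arntl window held 1 RORE downstream of its start, and Per3 held a pair of identical D-boxes. Of all 32851 promoter windows, 7.15% held the E-box, 2.32% the D-box, 2.61% the RORE, 1.79% the cAMP response element and 7.86% the heat shock element. The windows of Cry2, Dbp, Nr1d1 and Nr1d2, and a second window each of Per1 and Arntl, had no match to these letters.

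Libraries held between 6652539 counts (control replicate 3) and 30258404 counts (45 min, replicate 1). They fell into sets that the groups did not explain. In 5 libraries, called library set 2, genes with GC-rich exons gained counts: log2 CPM (counts scaled to a common library size) rose by 0.315 to 0.73 per 10 points of exonic GC, relative to each gene's mean over the libraries. In the other 10 libraries, called library set 1, this slope lay between -0.716 and 0.032. Library set 2 comprised control replicate 2, 45-min replicate 3 and 405-min replicates 1, 2 and 4, whereas all 3 of the 135-min libraries were in set 1. With groups in the model, 5145 of 10276 genes (50.1%) differed between the sets. The sets were split on slopes of these same counts, so differences of GC-rich genes are built into the split. This share and the adjusted p-values of single genes between the sets describe the split and are no independent test of it. The clock genes are compared with and without the library set as a covariate. The 10 fibroblast markers, among them the collagen gene Col1a1, were all above 1 CPM at the median library, and their summed level was between 12176 and 18543 CPM. Summed epithelial, endothelial, immune and neural markers stayed between 0.174 and 5.16 CPM.

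Several clock genes followed the library sets. Per1 (exonic GC 58.7%) was higher in set 2 by 1.62 ± 0.26 (SE) on the log2 scale, with an adjusted p of 0.000164. Nr1d1 (56.4% GC) was higher by 1.54 ± 0.26 (adjusted p = 0.000244) and Bhlhe40 (49.6% GC) by 1.08 ± 0.15 (adjusted p = 6.02e-05). The difference did not pass the threshold of 0.05 for Cry2 (0.96 ± 0.44), Per2 (0.58 ± 0.40), Per3 (0.13 ± 0.25), Arntl (-0.08 ± 0.27), Cry1 (-0.28 ± 0.20) or Nr1d2 (-0.41 ± 0.23). The median exonic GC of the tested genes was 49.1%, so Per1 and Nr1d1 were GC-rich and Bhlhe40 was not.

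**Figure D1:**
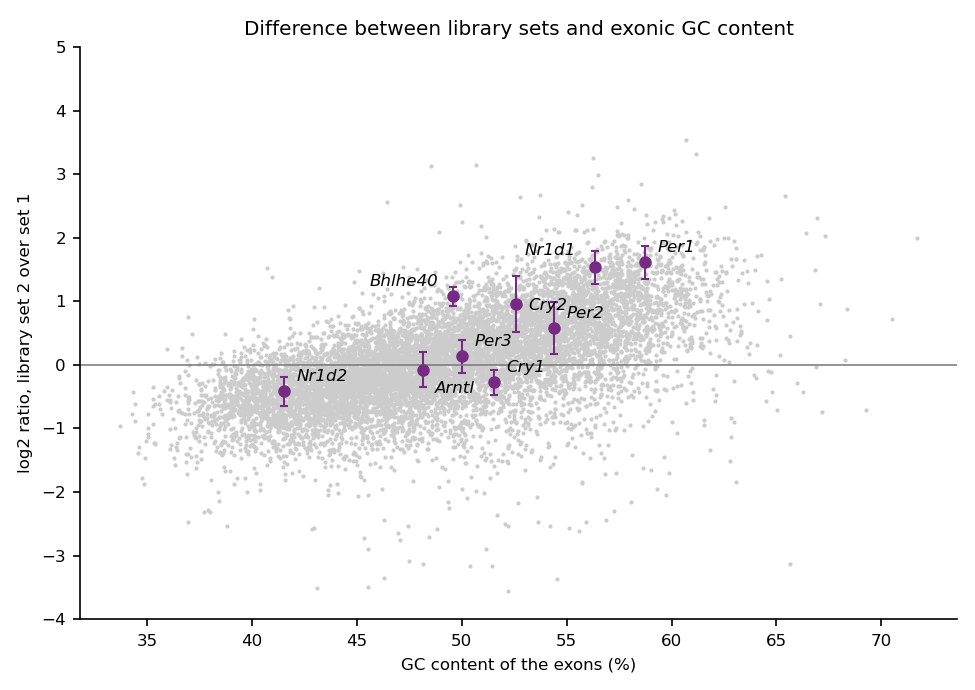
Difference between the library sets (y axis, log2 ratio of set 2 over set 1 with groups in the model) against the GC content of a gene's exons (x axis, percent). Grey points are the tested genes with a GC value, and purple points are 9 clock genes with their SE. Per1, Nr1d1 and Bhlhe40 lie furthest above 0 among the clock genes, and Nr1d2 lies lowest.

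Per kilobase, the deposited RPKM values (reads scaled by gene length and depth) ordered the clock genes in control cells as follows. Bhlhe40 was highest with a median of 4.11 RPKM (range 1.74 to 9.31), and Nr1d2 (4.03), Arntl (3.39) and Cry1 (3.15) lay close to it. Nr1d1 (1.26) and Per1 (0.928) came next. Per2 (0.642), Per3 (0.617), Dbp (0.615) and Cry2 (0.368) were lowest. The ranges of all neighbours in this order overlapped. All 10 genes thus had control medians of 4.11 RPKM or less, which were not compared with the levels of all genes. Dbp had no counts in control replicate 3, the shallowest library, where Cry2 had 1 count. Dbp therefore failed the requirement of at least 1 count in every library, and 9 of the 10 genes were tested.

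**Figure D2:**
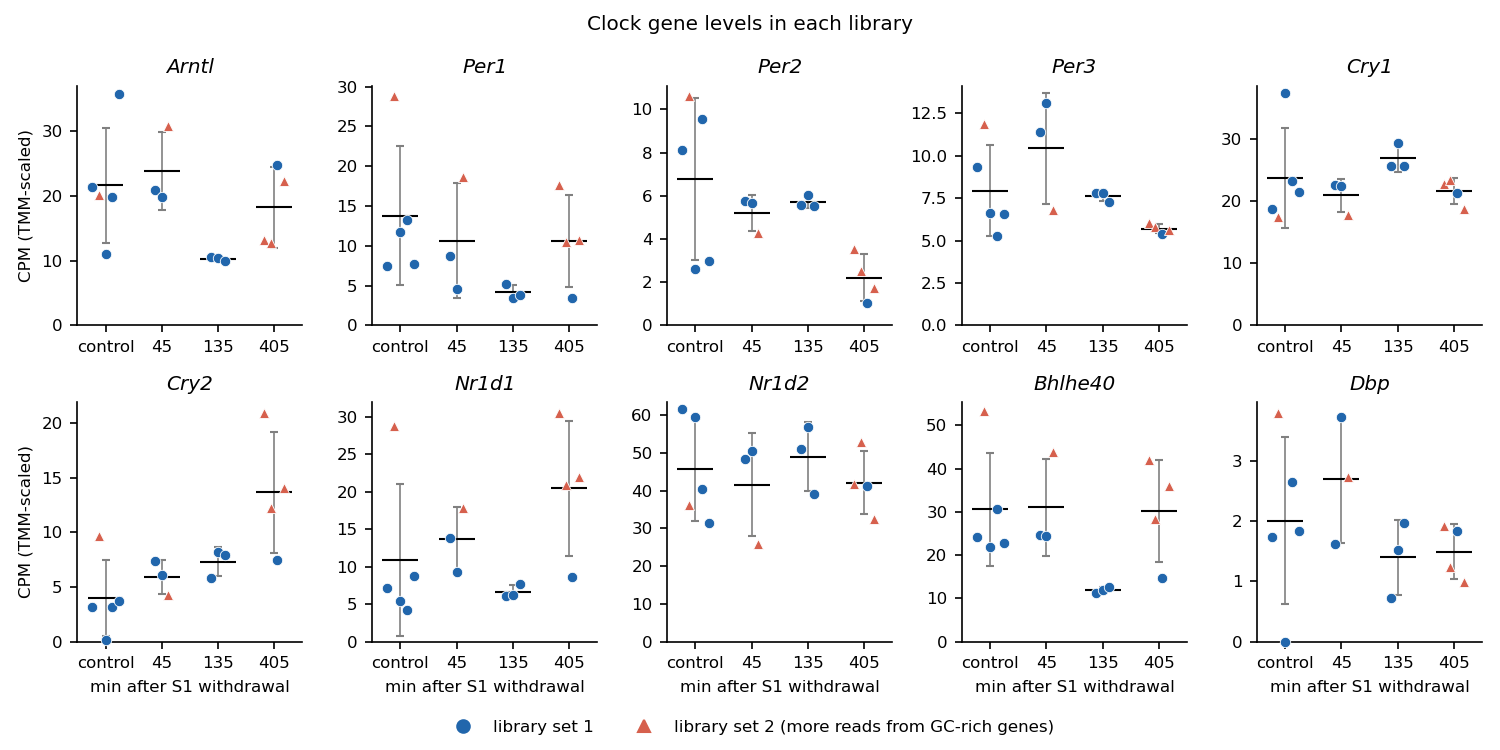
Levels of the 10 clock genes in each of the 15 libraries (y axes, TMM-scaled CPM on a linear scale from 0) in control cells and at 45, 135 and 405 min after S1 withdrawal. Blue circles are library set 1, red triangles library set 2, black bars group means and grey bars SD. The 135-min libraries of Bhlhe40 lie between 11.3 and 12.7 CPM, below all controls, and the 405-min libraries of Per2 lie between 1.06 and 3.56 CPM.

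At 45 min no clock gene passed the test. The background was 0% of the 10276 genes by edgeR, with 365 genes at an unadjusted p under 0.05, and DESeq2 called 6 genes, none a clock gene. With the library set as a covariate 0.0389% of genes were called, again no clock gene. In neither edgeR fit did a clock gene have an unadjusted p under 0.05. Within library set 1, 3 of 9 did (1398 of 10276 genes), as did 3 without control replicate 2 (3138 of 10287), with none called. In set 1 both libraries of Cry2, Nr1d1 and Per3 lay above all controls, at 2.61, 1.81 and 1.76 times their mean. In set 2 the single library lay below the single control for each (0.442, 0.618 and 0.572 times). The share of all genes so placed was not computed, so no rise is read from 2 libraries against 4 controls. Per1, the Period gene known as the most rapid target of resetting signals, measured 8.73, 4.58 and 18.6 CPM at 45 min. Its controls measured 7.47, 28.8, 11.8, 13.3 and 7.69 CPM. The groups overlapped, and the log2 fold change was -0.37 ± 0.54 (adjusted p = 0.762), or -0.59 ± 0.29 (adjusted p = 0.488) with the library set. Per2 measured 5.75, 5.65 and 4.26 CPM, within the controls' 8.13, 10.6, 2.61, 9.55 and 2.98 CPM, and its log2 fold change was -0.39 ± 0.46 (adjusted p = 0.721), or -0.38 ± 0.42 (adjusted p = 0.683) with the library set. The largest fold change among the 9 was that of Cry2, with 0.52 ± 0.58 (adjusted p = 0.717), or 0.67 ± 0.48 (adjusted p = 0.546) with the library set.

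At 135 min the 3 libraries of Bhlhe40, Per1 and Arntl all lay below every control library in CPM. These were 3 of the 10 clock genes, 2 of them repressors and 1 the activator of the loop, against 4.73% of all tested genes that lay below every control in the same way. In the deposited RPKM only Per1 kept this separation (0.576 or less, against 0.628 or more in controls). Control replicate 3, the shallowest library, had Bhlhe40 at 1.74 and Arntl at 0.93 RPKM. The lowest 135-min values were 1.86 and 1.75 RPKM. Summed over all genes, the RPKM of control replicate 3 was 159763, against 261684 or more in the other controls. Whether this scaling accounts for the lost separation was not tested. No clock gene passed the test without a covariate, against a background of 1.46% of genes called; 3 of the 9 had an unadjusted p under 0.05, and DESeq2 called the same 3, Bhlhe40, Arntl and Per1, where it called 4.18% of all genes. With the library set as a covariate Bhlhe40 and Per1 fell, 2 of 9 against a background of 7.93%. In these bulk libraries fewer cells with the mRNA and less mRNA per cell cannot be told apart.

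Bhlhe40 (chr6:108610623-108616919, mm9, plus strand) measured 11.3, 12 and 12.7 CPM at 135 min. Its controls measured 24.2, 53.3, 21.9, 30.6 and 22.8 CPM, the highest being control replicate 2 of library set 2. All 135-min libraries were thus below the lowest control, and the mean was 0.393 times that of control. Its log2 fold change was -1.35 ± 0.37 (adjusted p = 0.104) without a covariate and -1.06 ± 0.17 (adjusted p = 0.00183) with the library set. Within library set 1 alone, 3 libraries against 4, it was -1.05 ± 0.19 (adjusted p = 0.0136, background 5.68%), and Bhlhe40 was the only clock gene called there. With the covariate it stayed past the threshold in each of the 15 fits that left out a library, with an adjusted p of at most 0.0203. A long noncoding gene, 0610040F04Rik, overlaps Bhlhe40 on the opposite strand, and the sources used here do not say that reads were counted by strand.

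Per1 (chr11:68913660-68923457, plus strand) measured 5.22, 3.43 and 3.81 CPM at 135 min, below the lowest control of 7.47 CPM. Without a covariate the log2 fold change was -1.74 ± 0.58 (adjusted p = 0.2). It was -1.25 ± 0.30 (adjusted p = 0.0201) with the library set and -1.27 ± 0.35 (adjusted p = 0.0606) within library set 1. The Per1 libraries at 135 min were thus below the controls of both sets, but all of them were of set 1. Per1 was higher in set 2 by 1.62 ± 0.26 on the log2 scale, so the control of set 2 gives no separate comparison. With the covariate the call was lost without control replicate 4 (adjusted p = 0.0521) and without 135-min replicate 2 (0.0975) or replicate 3 (0.101).

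Arntl (chr7:120350979-120457636, plus strand) measured 10.6, 10.4 and 9.95 CPM at 135 min. Its controls measured 21.3, 20.1, 11, 19.8 and 35.6 CPM. The 135-min libraries stood close together, just below control replicate 3 and at 0.479 times the control mean. For Arntl the log2 fold change was -1.07 ± 0.34 (adjusted p = 0.17) and, with the library set, -1.09 ± 0.33 (adjusted p = 0.051), so Arntl did not pass the threshold in either fit. With the covariate, Arntl passed in 3 of the 15 fits that left out a library, with an adjusted p from 0.00391 to 0.174. The change was largest without control replicate 3 (-1.27, adjusted p = 0.00391) and smallest without control replicate 5 (-0.80). Arntl shares its region in the deposited tables with A630005I04Rik.

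Cry2 measured 5.83, 8.22 and 7.95 CPM at 135 min. The 4 controls of library set 1 measured 3.19, 0.174, 3.18 and 3.74 CPM and lay below all of these, whereas control replicate 2 measured 9.64 CPM. Cry2 thus had a log2 fold change of 0.83 ± 0.58 (adjusted p = 0.625), and 1.17 ± 0.49 (adjusted p = 0.137) with the library set. For the other genes the log2 fold changes at 135 min lay between -0.72 ± 0.55 (Nr1d1) and 0.19 ± 0.22 (Cry1), and none was called. With the library set they lay between -0.11 (Nr1d1, SE 0.31, and Per2, SE 0.42) and 0.15 ± 0.20 (Cry1), again with none called. The value of Nr1d1 rested on control replicate 2, without which it was 0.06 with no covariate.

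At 405 min Per2 fell and Cry2 rose in the fit without a covariate, 2 of 9 clock genes against a background of 23.4% of all genes. With the library set as a covariate Per2, Per1 and Bhlhe40 fell, 3 of 9 against 13.0%, and Cry2 did not pass. None of the 10 genes had all 4 of its 405-min libraries beyond all controls, whereas 6.40% of tested genes lay wholly below and 6.75% wholly above.

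Per2 (chr1:93312559-93355905, minus strand) encodes a Period repressor needed for a stable rhythm in mice. It measured 3.56, 2.51, 1.06 and 1.74 CPM at 405 min, against 8.13, 10.6, 2.61, 9.55 and 2.98 CPM in controls. In CPM all but replicate 1 of the 405-min libraries were below every control, and the mean was 0.327 times that of control. In RPKM only 405-min replicate 3 (0.0903) was below the lowest control (0.11), which was control replicate 3, the library with the lowest RPKM sum. The change from control was, on the log2 scale, -1.61 ± 0.44 (adjusted p = 0.0204) and, with the library set, -1.94 ± 0.46 (adjusted p = 0.0108). Within library set 2 the 3 libraries of 405 min differed from the single control by -2.03, and within library set 1 the single library of 405 min differed from the 4 controls by -2.48. Each of these has an arm of 1 library and is given as a value with no test. Without a covariate the call was lost without control replicate 4 (adjusted p = 0.05), 405-min replicate 2 (0.0509) or replicate 4 (0.0713). With it, the call was lost without control replicate 2 (0.119) or 405-min replicate 3 (0.114). The counts behind these values were low, between 11 and 53 reads per 405-min library.

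Cry2 (chr2:92243804-92274226, minus strand), a Cryptochrome repressor gene, measured 20.9, 12.2, 7.50 and 14.1 CPM at 405 min. Of these, 3 lay above all 5 controls, and the mean was 3.43 times that of control. In log2 terms the change was 1.73 ± 0.54 (adjusted p = 0.0331), and 1.29 ± 0.49 (adjusted p = 0.0933) with the library set. It was 0.71 within set 2 and 1.46 within set 1, values with an arm of 1 library each and no test. Without a covariate the call was lost in 6 of the 15 fits that left out a library: control replicate 1 (0.0727), 4 (0.0747) or 5 (0.0608), or 405-min replicate 1 (0.115), 2 (0.0661) or 4 (0.0804). The table of 45-min replicate 3 gives a shorter transcript model for Cry2, with 0.548 of the usual length; without that library the fold change at 405 min was 1.73 (adjusted p = 0.0348). The noncoding gene D930015M05Rik overlaps Cry2 on the opposite strand.

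Per1 measured 17.6, 10.5, 3.46 and 10.7 CPM at 405 min. The 3 libraries of set 2 were below control replicate 2 (28.8 CPM) of the same set, and the library of set 1 was below all controls of set 1, but pooled over the sets the groups overlapped. The log2 fold change was accordingly -0.38 ± 0.50 (adjusted p = 0.57) without a covariate and -1.28 ± 0.31 (adjusted p = 0.011) with it. The call with the covariate was lost without control replicate 2 (adjusted p = 0.0549) or 405-min replicate 3 (0.121), the only library of control in set 2 and the only 405-min library in set 1. Control replicate 2 and 405-min replicate 1 list a longer range for Per1, with nearly the same transcript length; without both of them Per1 was at -1.47 ± 0.40 (adjusted p = 0.037) with the covariate.

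Bhlhe40 measured 41.9, 28.4, 14.7 and 35.9 CPM at 405 min. As for Per1, each library was below all controls of its own set. In set 2 this was the single control replicate 2 (53.3 CPM), and in set 1 a single 405-min library was compared. The log2 fold change was -0.01 ± 0.32 (adjusted p = 0.976) without a covariate and -0.61 ± 0.18 (adjusted p = 0.0295) with it. This call was lost without control replicate 2 (adjusted p = 0.12) or 405-min replicate 2 (0.0577), 3 (0.28) or 4 (0.0522).

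**Figure D3:**
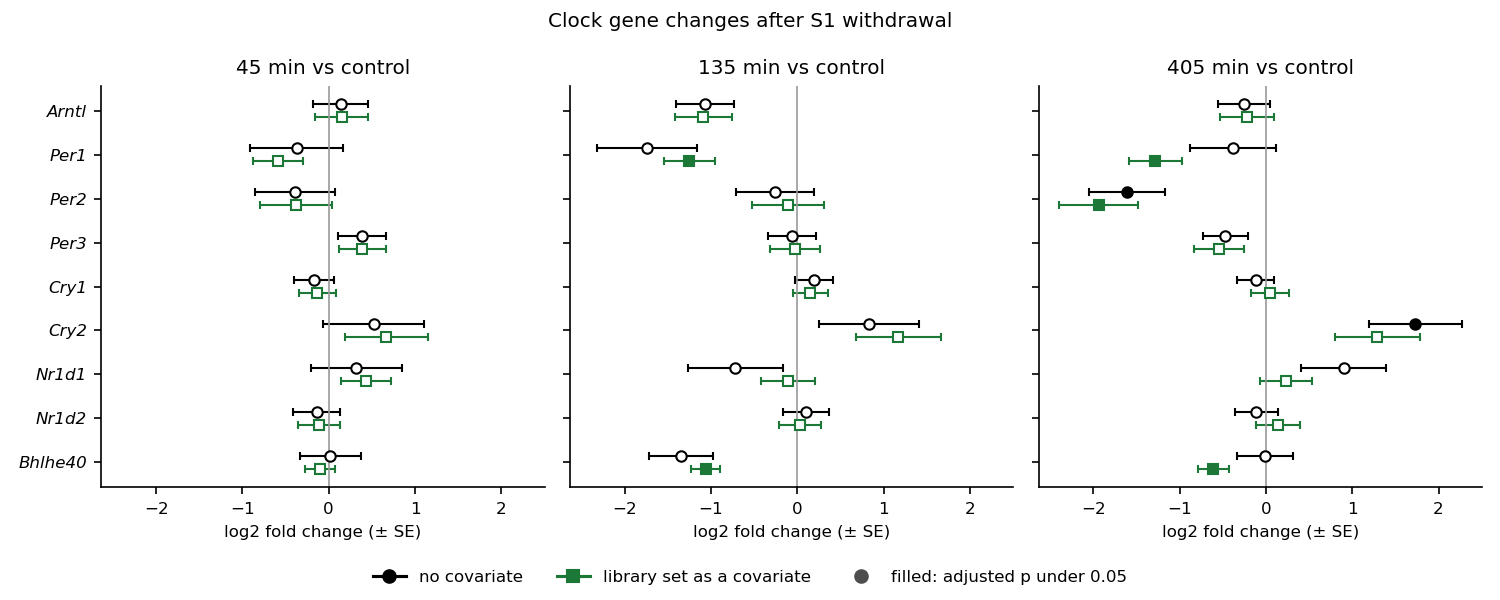
Log2 fold changes from control (x axes, with SE) of the 9 tested clock genes at 45, 135 and 405 min. Black circles are the fit without a covariate and green squares the fit with the library set; filled symbols passed an adjusted p of 0.05. At 45 min no symbol is filled, at 135 min Per1 and Bhlhe40 are filled in green, and at 405 min Per2 is filled in both fits, Cry2 in black, and Per1 and Bhlhe40 in green.

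The REV-ERB genes did not pass at any time in either fit. Nr1d1 (chr11:98629249-98636556, minus strand) measured 30.5, 20.9, 8.56 and 22.0 CPM at 405 min against 7.18, 28.8, 5.4, 4.27 and 8.72 CPM in controls. The log2 fold change was 0.90 ± 0.49 (adjusted p = 0.172) and, with the library set, 0.23 ± 0.30 (adjusted p = 0.658). The high values were those of library set 2 in both groups. Without control replicate 2 and with no covariate Nr1d1 passed, at 1.68 (adjusted p = 0.00218), in a fit that called 48.4% of all genes. All controls left in that fit were of library set 1. With the covariate and without the same library Nr1d1 was at 0.76 and did not pass. Thra overlaps Nr1d1 on the opposite strand. Nr1d2 (chr14:19036570-19071620, minus strand), the clock gene with the highest CPM, kept group means between 41.6 ± 13.7 (SD, n = 3, 45 min) and 49.0 ± 9.11 CPM (SD, n = 3, 135 min), and its log2 fold changes lay between -0.14 and 0.10, or between -0.11 and 0.14 with the library set.

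Per3 (chr4:150377764-150418731, minus strand), a Period gene that is dispensable for the rhythm itself, measured 6.02, 5.83, 5.38 and 5.61 CPM at 405 min against 9.36, 11.9, 6.61, 5.28 and 6.55 CPM in controls. These libraries stood close together at the lower end of the control range, and the log2 fold change was -0.47 ± 0.26 (adjusted p = 0.179), or -0.54 ± 0.29 (adjusted p = 0.235) with the library set. Cry1 (chr10:84594445-84647799, minus strand), the Cryptochrome that represses most strongly, had group means between 20.9 ± 2.69 (SD, n = 3, 45 min) and 26.9 ± 2.19 CPM (SD, n = 3, 135 min), and its log2 fold changes from control lay between -0.17 and 0.19, or between -0.13 and 0.15 with the library set. Dbp (chr7:52960617-52965573, plus strand) measured 1.74, 3.78, 0, 2.64 and 1.84 CPM in controls and 1.92, 1.23, 1.83 and 0.981 CPM at 405 min, from 18 to 28 reads. It measured 1.62, 3.73 and 2.72 CPM at 45 min and 0.729, 1.51 and 1.96 CPM at 135 min, so all groups overlapped. The count of 0 in control replicate 3 allows a level of up to 0.522 CPM (3 counts), which covers counting error only. A two-sided exact permutation test gave p = 0.554, 0.482 and 0.548 at 45, 135 and 405 min (0.554 each after adjustment over the 3 tests), where the smallest p possible was 0.0179 for 3 against 5 and 0.00794 for 4 against 5 samples. Sphk2 overlaps Dbp on the opposite strand.

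The spread between libraries differed by gene and group. In controls the coefficient of variation of CPM was lowest for Nr1d2 (30.2%) and highest for Nr1d1 (93.5%). At 135 min, where all libraries were of set 1, it was 3.23% for Arntl, 4.24% for Per3, 4.94% for Per2 and 5.83% for Bhlhe40, and up to 22.7% for Per1 and 44.5% for Dbp. These are 3 libraries against 5, and the difference in spread was not tested.

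Between the time points, no clock gene differed from 45 to 135 min without a covariate, against a background of 0.428%, with 3 of 9 at an unadjusted p under 0.05 and none called by DESeq2. Once the library set was included, Bhlhe40 was lower at 135 than at 45 min by -0.96 ± 0.19 on the log2 scale (adjusted p = 0.0197, 1 of 9 against 1.02%). The call was lost without any one of 45-min replicates 1 or 2 or of the 135-min libraries (adjusted p up to 0.131). From 135 to 405 min none of the 9 passed, against a background of 5.06%, with 5 at an unadjusted p under 0.05. Bhlhe40 changed by 1.34 ± 0.38 (adjusted p = 0.0552) and Per2 by -1.35 ± 0.48 (adjusted p = 0.1). DESeq2 called Bhlhe40, Nr1d1 and Per2 in this comparison, and 14.6% of all genes. With this covariate the changes were 0.44 ± 0.21 (adjusted p = 0.283) for Bhlhe40 and -1.83 ± 0.56 (adjusted p = 0.0829) for Per2, with 3.68% of all genes called. In the joint test of all time points no clock gene passed, against 9.69% of genes, with 4 at an unadjusted p under 0.05 and 4 called by DESeq2 (Per2, Cry2, Bhlhe40 and Arntl), which called 24.0% of all genes. With the library set Bhlhe40 (adjusted p = 0.00178) and Per1 (0.0111) passed, 2 of 9 against 13.1%, and Per2 was at 0.0501.

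Bhlhe40 had the smallest p of the joint test. The non-clock genes nearest to its log2 fold changes from control (0.02, -1.35 and -0.01) over the 3 time points were Ears2 at a Euclidean distance of 0.22, Tsx at 0.248 and Pik3ip1 at 0.256. They share the same libraries, including their sets.

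Among further clock transcription factors (Clock, Npas2, Arntl2, the Ror genes, Bhlhe41, Nfil3, Tef, Hlf and Ciart), 7 of 11 were tested and 1 fell at 135 and at 405 min, in both fits, where 1.46% and 23.4% of all genes were called without a covariate. This was Nfil3, which encodes a repressor that binds the same D-boxes as DBP. It measured 12.5 ± 3.41 CPM in controls (SD, n = 5), 5.0 ± 1.33 at 135 min (SD, n = 3) and 6.84 ± 0.519 at 405 min (SD, n = 4). All 3 of the 135-min libraries (up to 6.35 CPM) and all 4 of the 405-min libraries (up to 7.39 CPM) were below the lowest control of 7.47 CPM. Of all tested genes, 4.73% lay below every control in this way at 135 min and 6.40% at 405 min. The log2 fold changes were -1.31 ± 0.28 (adjusted p = 0.0296) and -0.86 ± 0.25 (adjusted p = 0.0251), and with the library set -1.25 ± 0.26 (0.01) and -1.01 ± 0.26 (0.0174).

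Of the clock kinases, ubiquitin ligases and partners reported here, 12 of 13 were tested. None passed at 45 or 135 min without a covariate, and 1 did at 405 min, against 23.4% of all genes. This was Btrc, a ligase component that marks Period proteins for degradation, which measured 19.7 ± 3.66 CPM in controls (SD, n = 5) and 28.8 ± 1.88 CPM at 405 min (SD, n = 4). All 4 of the 405-min libraries (26.2 CPM or more) were above the highest control (24.9 CPM), as for 6.75% of all tested genes. Btrc rose by 0.55 ± 0.16 on the log2 scale (adjusted p = 0.0247), and did not pass with the library set (0.45 ± 0.16, adjusted p = 0.0801).

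Of 7 widely rhythmic output genes, all tested, Cdkn1a rose at 135 and 405 min and Nampt fell at 405 min. These are 2 of 7 at 405 min, against 23.4% of all genes. Cdkn1a encodes the cell cycle inhibitor p21, which is also a target of p53. It measured 25.7 ± 5.87 CPM in controls, 68.2 ± 26.3 at 45 min, 126 ± 5.29 at 135 min and 91.0 ± 26.0 at 405 min (SD). Every library after S1 withdrawal (47.7 CPM or more) was above every control (34.5 CPM or less), and the log2 fold changes were 1.41 ± 0.25 (adjusted p = 0.585), 2.29 ± 0.25 (0.000218) and 1.83 ± 0.24 (0.000247). At 405 min 6.75% of all tested genes lay above every control in this way. At 45 min Cdkn1a passed with the library set (1.27 ± 0.15, adjusted p = 0.00224). Nampt, the rate-limiting enzyme of NAD salvage, fell at 405 min by 0.73 ± 0.19 on the log2 scale (adjusted p = 0.015), and by 0.40 ± 0.13 (adjusted p = 0.048) with the library set, when it also fell at 135 min (adjusted p = 0.0438).

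Of 18 genes of the inputs that reset the clock (cAMP and CREB, serum response factor and glucocorticoid signalling), 17 were tested. None passed at 45 min, 3 fell at 135 min, and 4 fell and 1 rose at 405 min, where the share of all genes called was 1.46% at 135 min and 23.4% at 405 min. The immediate-early gene Nr4a1 had 26.1 ± 8.68 CPM in controls (SD, n = 5), 8.66 ± 1.49 at 135 min (SD, n = 3) and 8.92 ± 1.29 at 405 min (SD, n = 4), and fell at both times (log2 fold changes -1.60 ± 0.29, adjusted p = 0.0113, and -1.56 ± 0.26, adjusted p = 0.00133). Egr1, another immediate-early gene, varied between 19.3 and 119 CPM in controls and between 6.68 and 9.52 CPM at 135 min, when it fell by 2.70 ± 0.57 (adjusted p = 0.031). Its values at 405 min lay between 20.7 and 37.7 CPM. The glucocorticoid-induced kinase gene Sgk1 fell by 1.14 ± 0.24 at 135 min (adjusted p = 0.028) and by 0.94 ± 0.21 at 405 min (adjusted p = 0.00844). Fkbp5, a glucocorticoid-induced co-chaperone gene, and Nr3c1, the glucocorticoid receptor gene, fell at 405 min by 0.73 ± 0.17 (adjusted p = 0.00908) and 0.59 ± 0.13 (adjusted p = 0.006). Crtc2, a CREB coactivator gene, rose by 1.20 ± 0.35 at 405 min (adjusted p = 0.0257). In the fit with the library set Crtc2 did not pass (0.62 ± 0.22, adjusted p = 0.0827), the other calls of these genes were kept, and Egr1 also fell at 405 min (adjusted p = 0.0127), as did Srf, while Dusp1 fell at 135 min. The median log2 fold change of the tested input genes was -0.32 at 135 min and -0.09 at 405 min.

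**Figure D4:**
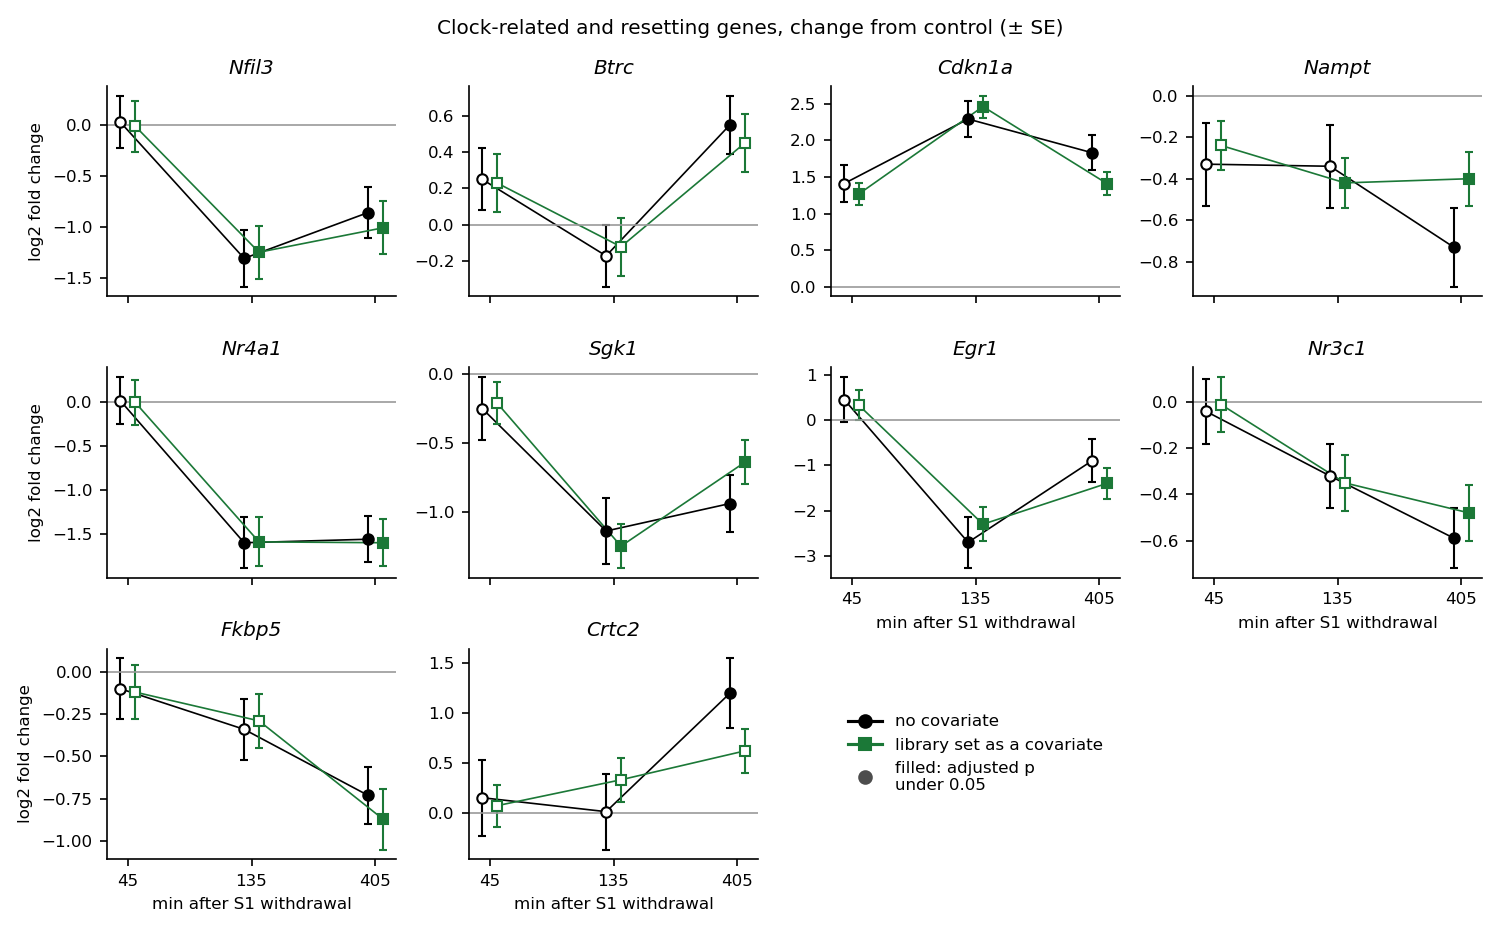
Log2 fold change from control (y axes, with SE, scaled per gene) against time after S1 withdrawal (x axes, min) for 10 clock-related or resetting genes that passed in any comparison with control. Black circles are the fit without a covariate, green squares the fit with the library set, and filled symbols passed an adjusted p of 0.05. Nfil3, Nr4a1 and Sgk1 are filled below 0 at 135 and 405 min in both fits, and Cdkn1a is filled above 0 at both times.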

How the data were processed

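mRNA-seq reads were mapped by the authors on mm9 and RefSeq genes were quantified; the aligner and the strand setting are not given in the sources used here. The labels name the Encore Complete kit, whereas the study's methods also name a manual protocol, and which library used which is not given. The deposited read counts are expected counts that need not be whole (8.7% to 15.6% of genes per library held a fraction) and were rounded. The authors also deposited RPKM, used here only to order genes by level and as an alternative scale. Deposited standardized scores were not used. Tables were joined by gene, and 940 genes had other coordinates in some libraries.

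Groups came from the sample titles. Genes with at least 1 count in every library (10276) were tested with edgeR 4.0.16 in R 4.3.3: TMM factors, 1 quasi-likelihood model of all 15 samples with a term for group (glmQLFit, glmQLFTest), and Benjamini-Hochberg adjustment over all tested genes with a threshold of 0.05. CPM were scaled by TMM factors. SE is the log2 fold change over the root of its F statistic. Exonic GC came from the NCBIM37 genome (the same assembly as mm9) with GENCODE vM1 exons, for 95.8% of tested genes, and libraries were split into sets at a GC slope of 0.2. Coordinates are those of mm9. The 10 genes, the further lists and the library sets were chosen with earlier results of these data known. All 10 genes are reported; of the further lists every gene past the threshold in a comparison with control is named, up to 8 per list. A gene of the further lists is not reported here. Replicates of a group (22 pairs) differed by 12.0 to 274.4 chi-square units per degree of freedom, so each library counted as a sample. Sampling error covers counting only. Alternatives were DESeq2 1.42.0, other normalizations and filters, a GC offset, a library set or replicate covariate, single sets, the compared groups alone, RPKM, and each library left out. The covariate combined with a left-out library or another filter, and the fits without libraries of another transcript model, were added after seeing the data.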

Additional observations from a re-analysis of the deposited data

Results flagged for a closer look

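Single libraries stood apart from their group by Dixon's criterion (gap to the nearest library over the group's range) for 4 of 20 combinations of clock gene and group, all in the control group; chance flags about 1 in 20. In control replicate 2 Per1 was at 28.8 CPM (next control 13.3 CPM), Nr1d1 at 28.8 CPM (next 8.72 CPM) and Bhlhe40 at 53.3 CPM (next 30.6 CPM). This library is the only control of library set 2. In control replicate 3, the shallowest library, Cry1 was at 37.4 CPM (next 23.2 CPM). In the deposited RPKM this library did not stand apart for Cry1 (3.055, control range 2.87 to 4). Without control replicate 2 and with no covariate, the log2 fold change of Per1 at 405 min moved from -0.38 to 0.09, that of Nr1d1 from 0.90 to 1.68 and that of Bhlhe40 from -0.01 to 0.29. With the library set as a covariate and without this library they were -1.35, 0.76 and -0.59. Without control replicate 3 that of Cry1 at 135 min moved from 0.19 to 0.41. The groups of 3 libraries were not examined in this way, and what sets these libraries apart was not tested.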

How the results depend on the processing

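No clock gene that passed without a covariate (Per2 and Cry2 at 405 min) reversed under any alternative. Per1 and Bhlhe40, which fell at 405 min only with the library set, were at 0.09 and 0.29 with no covariate and without control replicate 2. That fit set only controls of library set 1 against a 405-min group with 3 libraries of set 2. With the covariate and without the same library, Per1 was at -1.35 (adjusted p = 0.0549) and Bhlhe40 at -0.59 (adjusted p = 0.12). Of 2178 fold changes recomputed over 49 settings, 2017 kept their side of the threshold, 39 no longer passed and 122 newly passed; 175 of those that stayed uncalled changed sign. The 30 ratios of mean RPKM to control differed from those of CPM by less than 1 SD of the controls, relative to their mean. This bound was wide, from 30.2% (Nr1d2) to 93.5% (Nr1d1), so few ratios could have failed it. Single libraries did change place. At 135 min the RPKM of Cry1 (4.34 or more) lay above all controls (4 or less), and Bhlhe40 and Arntl overlapped the controls.

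The counts of clock genes called did change, and the cause was not tested. At 135 min, 0 without a covariate became 2 with the library set, 2 with the library set and the replicate block, 1 with the GC offset, 3 with DESeq2 and 1 within library set 1. Combined with the library set it was 3 with no filter, 2 with filterByExpr, and 2 or 3 without the libraries of another Per1 or Cry2 transcript model. The shares of all genes called in these combined fits were 3.91%, 5.46%, 11.7% and 10.2%. With the library set and the replicate block the share was 6.04%. At 405 min, 2 became 1 with the replicate block, 1 with the replicate block and GC offset, and 0 with only the compared groups. It was 1 with the library set and a single Per1 model. The shares of all genes called were 7.79%, 14.2%, 7.94% and 8.58% in that order, against 23.4%. The count was 3 with the library set (13% of all genes) and 3 with the replicate block added to it (12%). With a single Per1 model and no covariate it was 3 (36.1%). Counts within a single library set are left out at 405 min, because an arm of each holds 1 library. From 45 to 135 min, 0 became 1 with the library set, also with filterByExpr or a single Per1 or Cry2 model, but stayed at 0 with the library set and no filter, or with the replicate block added. The settings with 1 call had 1.02%, 0.742%, 0.825% and 0.69% of all genes called, against 0.428%. From 135 to 405 min, 0 became 2 with the GC offset, 1 when the replicate block was added to it, 3 with DESeq2, 4 with only the compared groups, and 1 with a single Cry2 model, with or without the library set. The shares of all genes called in that comparison were 8.33%, 1.84%, 14.6% and 28.9% for the first 4 of these, against 5.06%. With a single Cry2 model the share was 6.89%, or 4.4% with the library set. In the joint test, 0 became 2 with the library set, 2 with the GC offset, 1 with the replicate block and GC offset, 3 with the replicate block and library set, 4 with DESeq2 and 3 with a single Per1 model. The shares of all genes called were 13.1%, 14.1%, 5.49%, 10.5%, 24% and 21.6% in that order, against 9.69%. The joint test with the library set gave 3 with no filter, 2 with filterByExpr, and 2 or 4 with a single Per1 or Cry2 model. The shares were 6.73%, 9.69%, 11.6% and 12.7%. When each library was left out in turn, with or without the library set, the counts ranged from 0 to 0 at 45 min, 0 to 3 at 135 min, 0 to 4 at 405 min, 0 to 2 from 45 to 135 min, 0 to 2 from 135 to 405 min, and 0 to 5 in the joint test. Over the same fits the share of all genes called was 0% to 0.0617% at 45 min and 0.418% to 12.1% at 135 min. It was 4% to 48.4% at 405 min, 0.0487% to 2.65% from 45 to 135 min and 0.136% to 13.4% from 135 to 405 min. In the joint test it was 3.81% to 37.5%. The highest counts at 405 min and in the joint test came with the library set and without control replicate 3. There 20.8% and 22.9% of all genes were called.

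Replicate numbers did not pair the samples: deviations from group means correlated at -0.11 on average for the 19 pairs of libraries with the same number (-0.706 to 0.437) and at 0.028 for 64 pairs with different numbers. At 135 min the share of all genes called was 1.46% without a covariate, 2.51% with the GC offset, 4.18% with DESeq2 and 5.68% within library set 1. The replicate block took the number of all genes called at 405 min from 2409 to 800 and at 135 min from 150 to 31. Over all genes, the number called at 405 min ranged from 217 within library set 1 to 3410 with DESeq2 and 4980 without control replicate 2. Scaling by library size alone moved the median log2 fold change of all genes to 0.11 at 405 min and to 0.18 from 135 to 405 min, where 325 genes rose and 193 fell, against 230 and 290 with TMM; the GC offset gave 481 and 375. Dbp had 0 to 76 counts per library and Per2 11 to 214, which limits their precision.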
